A study of Mus musculus with 6 samples.

Results

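The oligoadenylate synthetase genes (Oas genes) were followed in CD4+ T cells taken from the lymph nodes of infant and adult mice. The 8 members, Oas1a, Oas1b, Oas1c, Oas1g, Oas2, Oas3, Oasl1 and Oasl2, were chosen by gene symbol, and all 8 were found among the 52997 symbols of the count table. The infant group held 3 mice aged 10 days and the adult group 3 mice aged 7 weeks. All 6 mice were of the strain given as Foxp3-GFP (C57BL/6), so both ages carried the reporter, and each library came from 1000 cells of the pooled lymph nodes of 1 mouse. The labels call the cells Tconv in the titles and CD4+ T cells elsewhere, and the series describes them as naive; gate and sex were not given in the sources used here.

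Oligoadenylate synthetases are enzymes of the cell-intrinsic antiviral response. When they bind double-stranded RNA they join ATP into short oligoadenylates, a second messenger whose release leads to the cutting of cellular and viral RNA. The genes are classical targets of type I interferon, which acts through the receptor chains Ifnar1 and Ifnar2 and the transcription factor complex ISGF3, to which Stat2 and Irf9 belong, on a promoter element called the interferon-stimulated response element. Mice have many more Oas1 copies than humans. Among them Oas1a and Oas1g encode active enzymes, whereas Oas1b is truncated by a stop codon in common laboratory strains, a variant known for susceptibility to flaviviruses. Oasl1 encodes a relative with ubiquitin-like domains and no synthetase activity, known in mice as a brake on the translation of Irf7 mRNA, and Oasl2 encodes an active relative.

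All 8 members lie on chromosome 5 (mm10), in 2 groups 5.79 Mb apart. Oasl2 (114896936 to 114912234) and Oasl1 (114923240 to 114937915) are neighbours. Oas2 (120730333 to 120749853), Oas3 (120753098 to 120777661), Oas1c (120800194 to 120812514), Oas1b (120812635 to 120824163), Oas1g (120876142 to 120887613) and Oas1a (120896256 to 120907521) lie in a 191.3 kb locus together with Oas1d, Oas1e, Oas1f and Oas1h, 10 genes in all. GENCODE annotates Oas1b as a polymorphic pseudogene and the other 7 members as protein coding. Oas1c and Oas1b point away from each other, with 120 bases between their first exons.

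The sequences just before the transcription start are shown for the 4 members that carried the core of the interferon-stimulated response element there. Each is the RefSeq sequence of the 120 bases before the start (GRCm38.p6, the build mm10), read 5′ to 3′ on the strand of the gene, which is the minus strand for all 4. Capitals mark the matches to the motif GAAA, any 2 bases, GAAA, searched on both strands (TTTC, any 2 bases, TTTC on the other).
Oas1a (chr5:120907526-120907645): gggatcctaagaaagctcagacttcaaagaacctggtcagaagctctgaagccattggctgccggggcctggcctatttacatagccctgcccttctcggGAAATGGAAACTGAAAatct
Oas1g (chr5:120887614-120887733): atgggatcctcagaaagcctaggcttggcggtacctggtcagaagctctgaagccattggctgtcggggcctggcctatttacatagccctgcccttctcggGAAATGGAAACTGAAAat
Oas1c (chr5:120812515-120812634): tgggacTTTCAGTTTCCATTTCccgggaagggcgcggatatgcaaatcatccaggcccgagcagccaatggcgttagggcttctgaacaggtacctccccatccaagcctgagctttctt
Oas3 (chr5:120777660-120777779): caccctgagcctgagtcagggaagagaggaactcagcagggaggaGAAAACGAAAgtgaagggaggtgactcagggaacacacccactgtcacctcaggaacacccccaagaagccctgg

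The capitals of Oas1a and Oas1g are the same 16 bases, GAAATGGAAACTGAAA, in which 2 matches overlap, and they begin 20 and 18 bases before the start. Oas1a and Oas1g had identical letters at 93 of the last 100 bases before the start of Oas1g, when the Oas1a window was shifted by 2 bases. The window of Oas1c spans the whole gap to Oas1b, and read on the Oas1b strand its capitals are the same 16 bases again, beginning 22 bases before the first exon of Oas1b. The Oas3 match is a single GAAAACGAAA, beginning 75 bases before the start. The table held windows of 250 bases before to 50 bases after the start for 6 of the 8 members (not Oas1b and Oas2), and the motif was in 4 of them, against 1131 of 32851 windows of that length over all genes (3.44%). The windows of Oasl1 and Oasl2 held no match to these letters, which says nothing about the factor. The motif TTCNNNGAA, which reads the same on both strands and is known as the site of STAT dimers, was in the window of Oas1a and in 8.30% of all windows; it did not overlap the capitals.

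The libraries held 4115742 to 4739304 counts in infant mice and 3421253 to 4887371 in adult mice, with no separation of the ages by total (two-sided exact permutation p = 0.9; 3 mice against 3 allow no p under 0.1). Adult replicate 2 stood apart, in that 36373 genes had a count there and 17992 to 21840 in each remaining library, and in that the 10988 autosomal protein-coding genes left untested held 1.85 counts per kb of exon there and 0.186 to 0.349 elsewhere. Levels are given as CPM, which are counts scaled to a common library total. Summed levels of 8 T cell identity genes were 6956 to 7207 CPM in infant and 6552 to 7504 CPM in adult libraries. Among 12 lists of markers for T cell states and other cells, the groups did not overlap for 2, and the exact permutation p was 0.1 for each, the smallest possible. The sum over 6 myeloid markers was 23.4 to 28.5 CPM in infant and 7.48 to 17.6 CPM in adult libraries. Within that list Fcgr3 was higher in infant cells (8.13 ± 1.44 CPM in infant and 2.26 ± 0.760 CPM in adult libraries, SD, n = 3, edgeR adjusted p = 0.0461). Itgam averaged 11.7 CPM in infant and 6.71 CPM in adult libraries and Cd68 4.38 CPM in infant and 2.04 CPM in adult libraries, neither passing (edgeR adjusted p = 0.257 and 0.359), while Lyz2, Csf1r and Adgre1 were at 0 to 2.09 CPM in every library. The sum over 5 natural killer markers was 7.33 to 9.92 CPM in infant and 14.3 to 30.7 CPM in adult libraries; most of it was Klrd1, Ncr1 was at 0 in all 6, and Nkg7 was at 0 to 0.21 CPM in infant and 0 to 3.41 CPM in adult libraries.

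**Figure D1:**
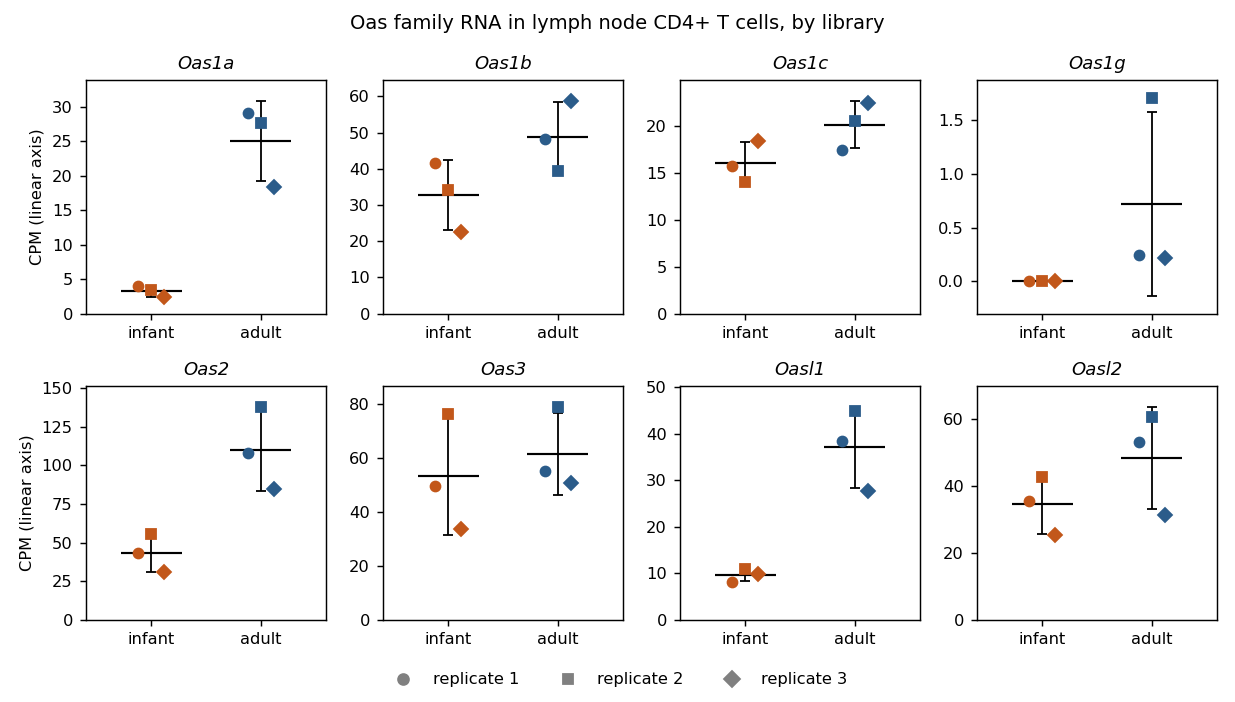
CPM of each Oas gene (linear axes, a different range in each panel) in the 3 infant and 3 adult libraries; symbols give the replicate number, the horizontal line is the mean and the bar the SD. The infant and adult points lie apart for Oas1a, Oas2 and Oasl1 and overlap for Oas1b, Oas1c, Oas3 and Oasl2, and Oas1g is near 0 throughout.

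The comparison of ages asked how far each member's RNA differed between T cells of infant and adult mice. Oas1a, Oasl1 and Oas2 were lower in infant cells, by 7.55-fold, 3.83-fold and 2.54-fold. Oas1b, Oas1c, Oas3 and Oasl2 had negative log2 fold changes that did not pass the test, and Oas1g was too low to test. Of the 7 members tested, 3 fell and 0 rose at an adjusted p under 0.05, where 3.64% of all 11681 tested genes were called, 2.11% as lower and 1.52% as higher in infant cells (edgeR quasi-likelihood test, Benjamini-Hochberg adjustment over all tested genes). The infant values lay wholly under the adult values for the same 3 members, and for 11.6% of all tested genes, and wholly above them for 0 members and for 11.2% of all tested genes. The median log2 fold change, infant over adult, was −0.58 over the 7 tested members and −0.0017 over all tested genes, and it was negative for 7 of 7 members and for 50.3% of all tested genes. All 7 tested members were above the low-count threshold of 2.34 CPM in all 3 libraries of both ages, so none was tested through 1 age alone.

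Among the active synthetases, Oas1a had the steepest fall. It was at 3.98, 3.39 and 2.42 CPM in infant libraries 1 to 3, against 29.1, 27.6 and 18.4 CPM in adult libraries 1 to 3. Even the lowest adult library was far above the highest infant library. The log2 fold change was −2.92 ± 0.33 (SE, 3 mice per age, edgeR adjusted p = 1.78e-04), the 19th lowest of all tested genes. The infant values rest on 19, 14 and 10 counts.

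Oas1g, the nearest copy of Oas1a, had 0 counts in each infant library, where a floor of 3 counts corresponds to 0.628 to 0.726 CPM. In adult libraries it had 1, 6 and 1 counts. The 6 counts came from adult replicate 2, in which the count density over untested genes predicts 4.3 for a gene of its exon length. Oas1g thus stood near background in every library; it carries the same 16 capitals as Oas1a before its start.

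Whether reads of Oas1a and Oas1g can be told apart depends on their sequence, since each read of a pair was 25 bases long. A pair can be placed by either of its reads, so the share of pairs that match both copies may be smaller than the share of words. Of the 25-base words in the GENCODE transcripts of Oas1a, 72.5% also occur in transcripts of another gene, nearly all of them in Oas1g (72.4%). For Oas1g the share was 58.3%. Between them, 511 words of Oas1a and 973 words of Oas1g are held by no other gene's transcripts. The level of each of these copies is uncertain, the counting of reads that match both being not given in the sources used here. All words of Oas2 were its own, and Oasl1 shared 1.3%, Oasl2 2.5% and Oas3 3.4% of theirs with other genes.

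Oas2, which encodes a synthetase with a pair of catalytic-type units, was at 43.1, 55.6 and 30.9 CPM in infant libraries, against 108, 138 and 84.6 CPM in adult libraries. The 2 ages did not overlap, and the log2 fold change was −1.35 ± 0.21 (edgeR adjusted p = 0.00245).

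Oas3, the next gene along the chromosome and the largest synthetase, was at 49.4, 76.2 and 33.6 CPM in infant libraries, against 55.0, 78.7 and 50.6 CPM in adult libraries. The ages overlapped, and the spread within each age was wider than the difference between them. The log2 fold change was −0.21 ± 0.25, with a 95% interval of −0.75 to 0.33 (edgeR adjusted p = 0.740). It was −0.56 without infant replicate 2, 0.03 without infant replicate 3 and 0.01 without adult replicate 2, so its direction rests on single libraries.

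Within a library the ratio of Oas2 to Oas3 does not depend on any scaling between libraries. The log2 ratio of their counts was −0.20, −0.45 and −0.12 in infant libraries and 0.97, 0.81 and 0.74 in adult libraries. Oas3 thus had more counts than Oas2 in each infant library, and Oas2 had more counts than Oas3 in each adult library. The means differed by −1.10 (infant minus adult; two-sided exact permutation p = 0.1, which is the lowest attainable, and 0.162 after adjustment over the 21 pairs of tested members).

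The Oas1 copies without a passing change were Oas1b and Oas1c. Oas1b, the truncated copy, was at 41.7, 34.1 and 22.5 CPM in infant and 48.2, 39.5 and 58.8 CPM in adult libraries. Infant replicate 1 lay above adult replicate 2, so the ages overlapped. The log2 fold change was −0.58 ± 0.23, with a 95% interval of −1.06 to −0.09 (edgeR adjusted p = 0.201). Leaving out 1 library gave −0.79 (without infant replicate 1) to −0.37 (without infant replicate 3), and none of the 6 fits passed.

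Oas1c, which is reported as lacking synthetase activity, was at 15.7, 14.0 and 18.4 CPM in infant and 17.5, 20.5 and 22.4 CPM in adult libraries. Infant replicate 3 was above adult replicate 1, and the log2 fold change was −0.33 ± 0.24, with a 95% interval of −0.84 to 0.18 (edgeR adjusted p = 0.538). Of its 25-base words 29.3% occur in other genes, and 227 bases of its exons overlap exons of Gm43069, which this protocol without strand cannot separate.

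The log2 ratio of Oas1a to Oas1b was −3.39, −3.33 and −3.22 in infant libraries and −0.73, −0.52 and −1.68 in adult libraries. The ages lay apart, with a difference of −2.34 (exact permutation p = 0.1, adjusted p = 0.162). Oas1a thus made up a smaller part of the pair in every infant library, whereas the ratio of Oas1b to Oas1c overlapped between the ages (difference −0.27, exact permutation p = 0.6).

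The counts of Oas1a to Oas1h were summed, so that it no longer mattered to which copy a counted shared read was assigned. Shared reads that were not counted would be missing from the sum as well. The sum was 62.6, 51.8 and 44.2 CPM in infant and 95.03, 95.2 and 99.8 CPM in adult libraries. The ages did not overlap. For the sum the log2 fold change was −0.87 ± 0.15 (edgeR adjusted p = 0.00469 in a fit of 11679 features). Oas1b and Oas1c supplied most of the counts of this sum in every library.

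Of the 2 Oas-like genes, Oasl1 fell and Oasl2 did not pass. Oasl1 was at 8.17, 10.9 and 9.90 CPM in infant libraries, against 38.5, 44.9 and 27.8 CPM in adult libraries. The adult libraries were all well above the infant libraries, with a log2 fold change of −1.94 ± 0.25 (edgeR adjusted p = 6.59e-04). Exons of Oasl1 overlap those of Gm13822 over 38 bases.

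Oasl2 was at 35.6, 42.8 and 25.4 CPM in infant and 53.1, 60.8 and 31.4 CPM in adult libraries. Adult replicate 3 lay below infant replicates 1 and 2. The log2 fold change was −0.48 ± 0.25, with a 95% interval of −1.01 to 0.05 (edgeR adjusted p = 0.353), and −0.72 to −0.28 when 1 library was left out. The log2 ratio of Oasl1 to Oasl2 was −2.12, −1.98 and −1.36 in infant and −0.46, −0.44 and −0.18 in adult libraries. The ages lay apart here too (difference −1.46, exact permutation p = 0.1, adjusted p = 0.162). They lay apart for 13 of the 21 pairs of tested members, and the share over pairs of all tested genes was not counted. The ratios shown as lying apart each set a member that passed against one that did not. They therefore restate those calls in part, from the same counts.

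**Figure D2:**
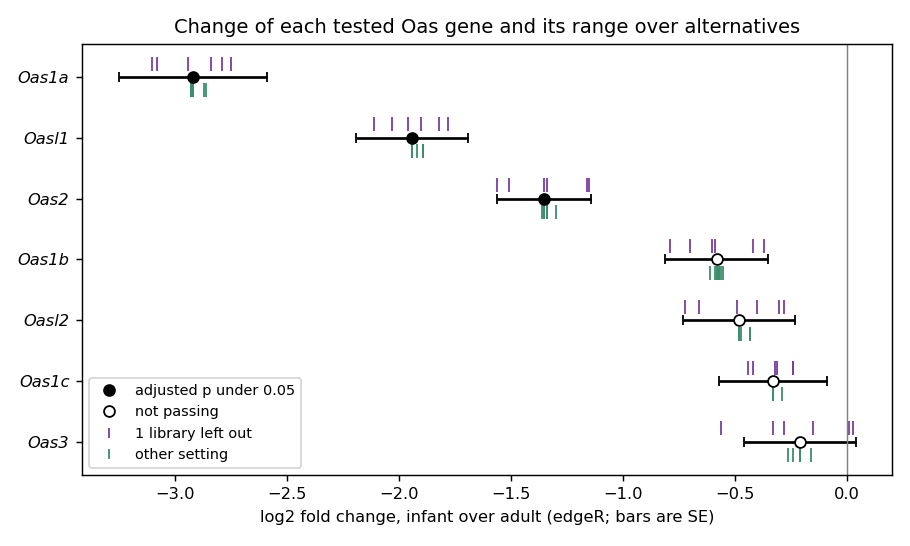
Log2 fold change, infant over adult, of the 7 tested Oas genes with its SE (circles, filled where the edgeR adjusted p was under 0.05), the values with 1 library left out (upper ticks) and those under other settings (lower ticks). Every tick of Oas1a, Oasl1 and Oas2 is at −1.15 or below, whereas those of Oas3 reach 0.03.

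The 3 calls held in each fit that left out 1 library, with adjusted p (edgeR) of at most 0.00365 for Oas1a, 0.00747 for Oasl1 and 0.0229 for Oas2. The share of all genes called in those fits was 1.44% without infant replicate 1, 1.12% without infant replicate 2, 1.54% without infant replicate 3, 1.5% without adult replicate 1, 4.07% without adult replicate 2 and 1.69% without adult replicate 3. With other settings the 3 members were called beside 3.81% (library totals), 3.93% (upper-quartile factors), 3.66% (size factors of DESeq2), 1.39% (no filter), 4.79% (stricter filter), 5.32% (DESeq2), 3.65% (limma-voom) and 2.79% (replicate block) of all genes tested. Bulk libraries of this kind cannot tell fewer cells that hold the RNA from less RNA per cell. The sum over natural killer markers given above was also lower in infant libraries and that over myeloid markers higher, and their part in these differences was not tested.

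**Figure D3:**
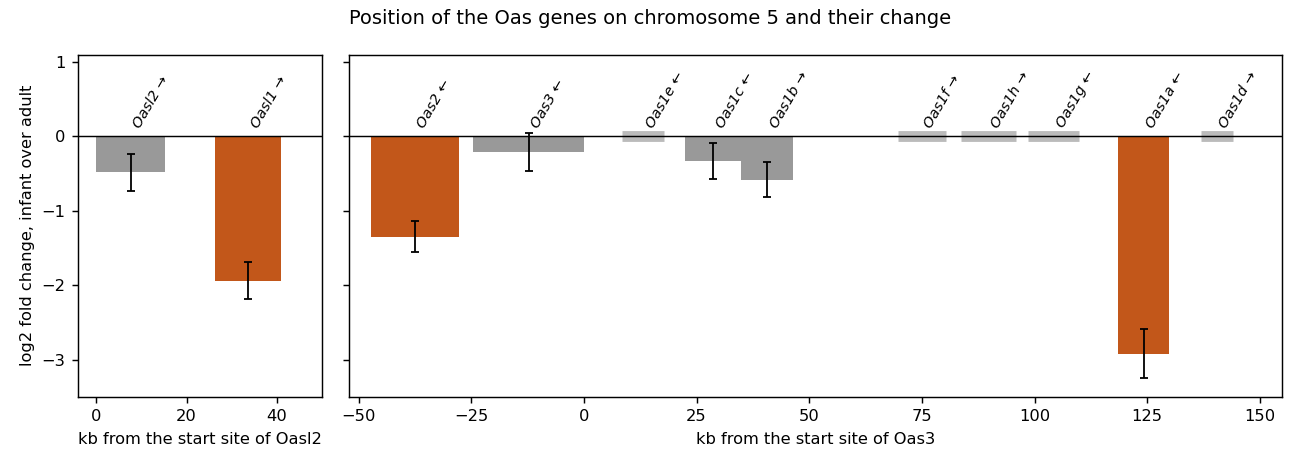
Log2 fold change, infant over adult, with SE, drawn over the position of each Oas gene (kb from the start site of Oasl2 on the left and of Oas3 on the right; arrows give the strand). Orange genes passed the test, dark grey genes did not, and thin light grey genes were too low to test. Oas2 and Oasl1 passed while their neighbours Oas3 and Oasl2 did not.

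Levels of different members can be set side by side only per length, so CPM were divided by kb of exon. The full exon length was used, although 72.5% of the 25-base words of Oas1a, 58.3% of Oas1g and 29.3% of Oas1c are shared. If shared reads were not counted, the levels of these copies would be too low here, so their places in the order are uncertain. In infant cells the order was Oas1b (16.4 ± 4.86 CPM per kb, mean ± SD, n = 3), Oas2 (9.71 ± 2.78), Oas3 (7.51 ± 3.05), Oas1c (6.66 ± 0.907), Oasl2 (5.43 ± 1.38), Oasl1 (3.70 ± 0.528), Oas1a (1.73 ± 0.419) and Oas1g (0 in each library). The ranges of neighbours over the 3 libraries overlapped down to Oasl1, while those of Oasl1 and Oas1a did not. Within each infant library Oas1b was above Oas2, Oas2 above Oas3, and Oasl2 above Oasl1. In adult cells the order was Oas2 (24.8 ± 5.99 CPM per kb), Oas1b (24.5 ± 4.84), Oasl1 (14.2 ± 3.32), Oas1a (13.3 ± 3.07), Oas3 (8.69 ± 2.14), Oas1c (8.36 ± 1.04), Oasl2 (7.599 ± 2.39) and Oas1g (0.308 ± 0.364). There Oas2 and Oas1b could not be ordered beyond their spread, the ranges of both lay above that of Oasl1, and from Oasl1 down to Oasl2 the ranges of neighbours overlapped. Within each adult library Oas1a was above Oas3.

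Summed over the 8 members, the level was 55.0, 58.9 and 39.7 CPM per kb in infant libraries and 102, 113 and 90.4 CPM per kb in adult libraries. The family as a whole was thus at 0.503 of its adult mean in infant cells. Oas1a made up 3.05% to 3.84% of this sum in infant libraries and 10.8% to 15.1% in adult libraries, and Oasl1 made up 5.70% to 9.57% in infant and 11.8% to 15.3% in adult libraries. Oas3 made up 12.0% to 18.3% in infant and 7.62% to 9.89% in adult libraries. The shares are parts of 1 sum, so they do not move independently. They also depend on how reads shared between Oas1 copies were counted, above all for Oas1a.

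**Figure D4:**
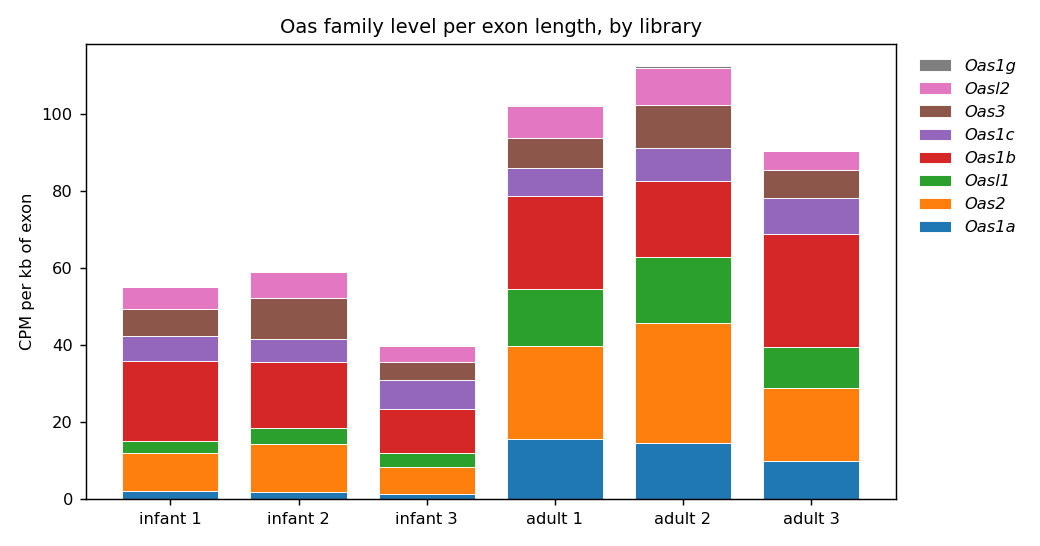
CPM per kb of exon of the 8 Oas genes, stacked for each infant and adult library. The stacks end at 39.7 to 58.9 in infant and at 90.4 to 113 in adult libraries, and the lowest 3 segments (Oas1a, Oas2 and Oasl1) account for most of the difference.

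Within each age, several members were lowest in the same library. Infant replicate 3 had the lowest level of 5 of the 7 tested members among infant libraries (Oas1a, Oas1b, Oas2, Oas3 and Oasl2), and the highest of Oas1c. Adult replicate 3 had the lowest level of 5 of 7 among adult libraries (Oas1a, Oas2, Oas3, Oasl1 and Oasl2), and the highest of Oas1b and Oas1c. The share of all tested genes that were lowest in these libraries was not counted, so these counts have no background beside them. For Oas2, Oas3 and Oasl2, replicate 2 was highest and replicate 3 lowest at both ages. Among interferon-response genes of the pathway lists, Irf7, Usp18, Isg15, Zbp1, Ifih1, Eif2ak2 and Trim25 were lowest in replicate 3 of each age. Of these, Irf7, Isg15 and Zbp1 were highest in replicate 2 at both ages, and the others were not. Irf9, Stat2, Dhx58, Ddx58, Adar, Irf1, Socs1 and Mb21d1 were not lowest in replicate 3 at both ages. Most of these genes were picked after their values had been seen, so the lists give no share for the pattern. Irf7 was at 135, 170 and 114 CPM in infant and 160.0, 209 and 115 CPM in adult libraries, and Usp18 was at 78.7, 75.7 and 38.4 CPM in infant and 121, 122 and 72.6 CPM in adult libraries. Irf9 was lowest in infant replicate 1 and adult replicate 2, Stat2 in infant replicate 2 and adult replicate 3 (76.4 and 98.7 CPM), and Dhx58 in infant replicate 1 and adult replicate 3 (31.8 and 48.1 CPM).

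Likeness of pattern was measured as the root mean square difference between log2 CPM centred on each gene's mean over the 6 libraries. By this measure the 3 tested genes closest to Oas1a were Pck2 (0.24), Tmie (0.26) and Insl6 (0.32), those closest to Oas2 were Vamp5 (0.15), Prdm1 (0.19) and Cd72 (0.19), and those closest to Oasl1 were Dntt (0.19), App (0.20) and Wls (0.22). For Oas1b they were Trim8, Bach2it1 and Sntb1 (0.12 to 0.13), for Oas1c Fam114a2, Man2c1 and Ube2h (0.041 to 0.055), for Oas3 Gm45804, Dsn1 and Crem (each 0.12), and for Oasl2 Them6, Slc39a1 and Stard4 (0.089 to 0.12). The measure includes the difference between the ages, so closeness need not mean that genes vary together within an age. The closest 3 of Oas1a had log2 fold changes of −3.09, −2.43 and −3.53, in the order named. Those of Oas2 had −1.16, −1.09 and −1.30, and those of Oasl1 had −1.88, −1.92 and −1.83. No member was among the closest 3 of another. The nearest member to Oas1a was Oasl1 (0.52, rank 18 among tested genes), Oas2 and Oasl1 were nearest to each other (0.36, ranks 81 and 19), and so were Oas3 and Oasl2 (0.25, ranks 109 and 112). Oas1b and Oas1c were nearest to each other among the members (0.41), but at ranks 2706 and 7353 many other genes lay closer.

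Beyond the family, 57 genes around the pathway were listed by role, of which 43 were tested, 3 fell and 0 rose. The other 40 tested genes did not pass, and the median log2 fold change was −0.10, against −0.0017 over all tested genes, of which 2.11% were called as lower. None of the 4 genes of oligoadenylate turnover and its partners passed. Among them, Pde12, which degrades oligoadenylates, averaged 85.7 ± 12.3 CPM in infant and 73.4 ± 13.5 CPM in adult libraries (SD, n = 3), a log2 fold change of 0.23 ± 0.16 (edgeR adjusted p = 0.531).

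The signalling chain from the interferon receptor to ISGF3 had 0 of 9 genes called, with log2 fold changes of −0.38 to 0.39. Infant values lay wholly under adult values for 2 of the 9 (Stat2 and Irf9), against 11.6% of all tested genes. They lay wholly above them for 3 (Ifngr1, Jak2 and Tyk2), against 11.2% of all tested genes. Ifnar1 was at 321, 300.4 and 249.7 CPM in infant and 233, 226 and 261 CPM in adult libraries, a log2 fold change of 0.27 ± 0.12 (edgeR adjusted p = 0.251), and Ifnar2 averaged 92.6 ± 10.3 CPM in infant and 92.5 ± 14.3 CPM in adult libraries (SD, n = 3). The ages overlapped for both receptor chains. Stat2, a subunit of ISGF3, had a log2 fold change of −0.36 ± 0.14 that did not pass (edgeR adjusted p = 0.190). Irf9, the DNA-binding partner of the complex, was at 230.1, 249.8 and 235 CPM in infant and 317, 302 and 308 CPM in adult libraries. Its ages lay apart, and it missed the threshold narrowly (−0.38 ± 0.10, edgeR adjusted p = 0.0539), with adjusted p of 0.0118 to 0.0443 under 6 of 15 alternatives.

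Of the interferon regulatory factors, 0 of 6 passed, and Irf7 had a log2 fold change of −0.20 ± 0.19 (edgeR adjusted p = 0.649; 0.03 without adult replicate 2). Of 9 tested sensors of double-stranded RNA and their adaptors, 0 passed; Ifih1, which encodes the sensor MDA5, had −0.45 ± 0.18 and Dhx58, which encodes LGP2, had −0.63 ± 0.21 (edgeR adjusted p = 0.214 and 0.123), while Ddx58, which encodes RIG-I, had 0.05 ± 0.11. Among feedback genes, Usp18, the protease that removes ISG15 and dampens receptor signalling, did not pass (−0.70 ± 0.24, edgeR adjusted p = 0.142), and passed under 2 of 15 alternatives (adjusted p = 0.0105 and 0.0198).

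The 3 pathway genes that fell were Socs3, Fam46a and Fam46c. Socs3, a feedback inhibitor of cytokine receptors, was at 33.1, 42.3 and 25.8 CPM in infant and 118, 91.5 and 136 CPM in adult libraries, with a log2 fold change of −1.77 ± 0.19 (edgeR adjusted p = 1.35e-04). It is best known as a target of STAT3. Fam46a (also Tent5a) and Fam46c (also Tent5c) stand in the list of nucleotidyltransferase relatives, the fold to which the synthetases belong. Fam46a had a log2 fold change of −1.68 ± 0.22 (edgeR adjusted p = 7.72e-04) and Fam46c, a poly(A) polymerase, of −0.86 ± 0.14 (adjusted p = 0.00291). In the same list the DNA sensor cGAS (Mb21d1 in the table), whose fold is most like that of the synthetases, had 0.41 ± 0.67 and did not pass (edgeR adjusted p = 0.817).

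**Figure D5:**
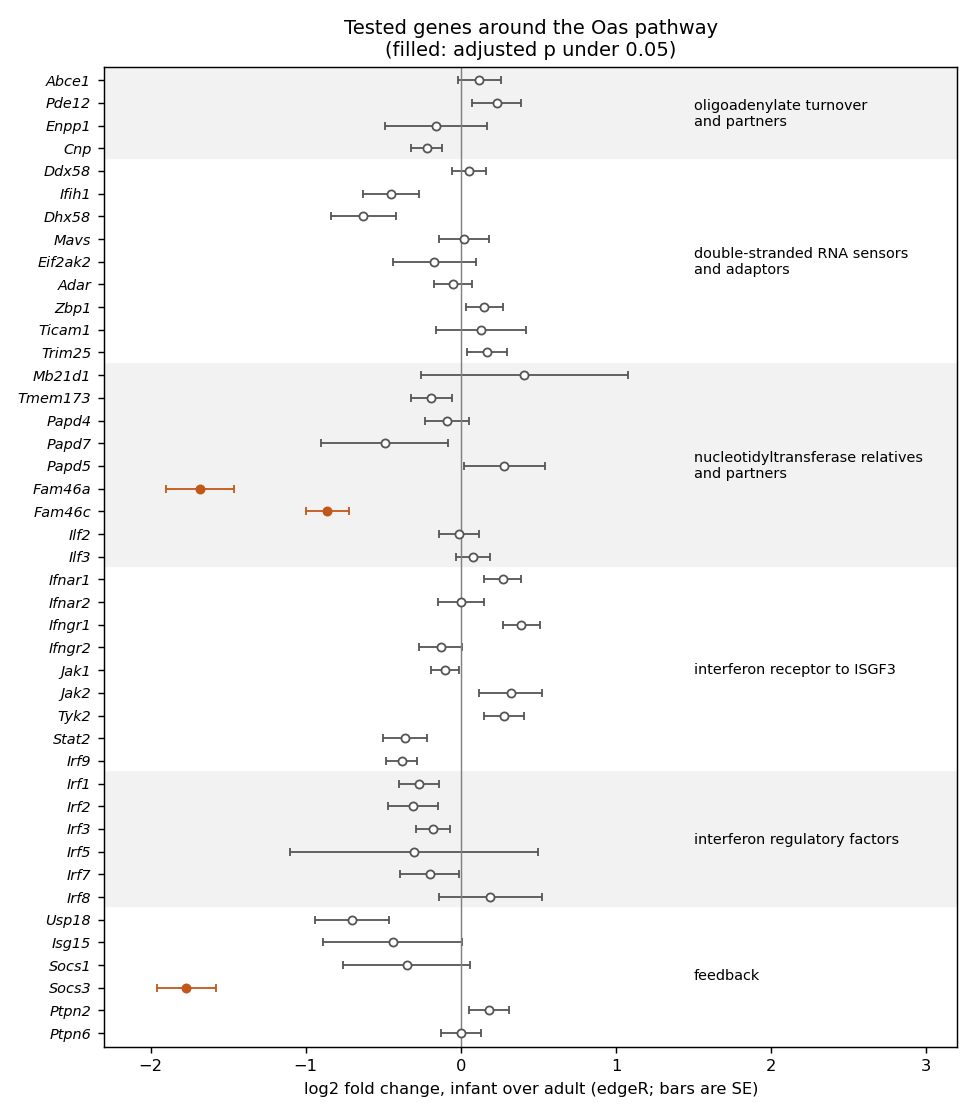
Log2 fold change, infant over adult, with SE, of the 43 tested genes around the Oas pathway, grouped by role; filled points passed at an edgeR adjusted p under 0.05. Only Fam46a, Fam46c and Socs3 are filled, and the receptor and ISGF3 genes lie between −0.38 and 0.39.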

How the data were processed

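Polyadenylated RNA of sorted cells was copied from an oligo(dT) primer, amplified by PCR, made into libraries with Nextera XT and read as 25-base pairs, per the labels' protocols. The protocol marks neither strand nor molecules, so counts include PCR copies. Per the submitters' processing notes, STAR 2.5.4 and featureCounts were used with build mm10; annotation release and treatment of multiply matching reads were not given in the sources used here. Raw counts for each gene symbol, with a column for every library, make up the deposited table.

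From these, 11681 genes passed filterByExpr of edgeR 4.0.16 (minimum count 10, minimum total 15) and were tested by its quasi-likelihood F test (R 4.3.3) with TMM factors, no covariate and Benjamini-Hochberg adjustment at 0.05, after the fit had been tested on simulated data. A log2 fold change is infant over adult; its SE is its size over the root of F. For CPM, library size was the sum over tested genes multiplied by the TMM factor. Alternatives used DESeq2 1.42.0 and limma 3.58.1 (voom), among others. Positions and exon lengths came from GENCODE M21, and 25-base words were compared over its transcripts on both strands; promoter sequences came from RefSeq. Floors cover counting error only.

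The 8 members, the role and marker lists and the rule for naming genes (all members, pathway genes that passed, 6 fixed pathway genes, and the 3 genes closest to each member) were chosen with earlier results of these data known; 2 further pathway genes are not reported here. Pde12, Cnp, Ifih1, Dhx58, Ddx58, Mb21d1, Isg15, Socs1, Zbp1, Eif2ak2, Trim25, Adar, Irf1, Ifngr1, Jak2 and Tyk2 were chosen after the values had been seen. So were the within-library ratios and the 25-base comparison. Same-numbered mice of the 2 ages did not deviate together over all tested genes (r = −0.047, −0.011 and −0.092), so the numbers were not treated as pairs.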

Additional observations from a re-analysis of the deposited data

How the results depend on the processing

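The same 3 members, Oas1a, Oas2 and Oasl1, were called under each of 14 alternatives: scaling by library totals, upper-quartile factors or the size factors of DESeq2, a filter made stricter (at least 10 counts in 3 libraries with a mean of 20) or dropped, DESeq2, limma-voom, the replicate block, and each library left out. With the Oas1 copies summed, the sum, Oas2 and Oasl1 were called. Leaving out 1 library always gave 3. The count over all genes was 425 (247 lower, 178 higher) and was 176, 139 and 189 without infant replicates 1, 2 and 3 and 185, 488 and 208 without adult replicates 1, 2 and 3 (139 to 488; lower 84 to 271, higher 55 to 217); DESeq2 called 268 genes as higher. The cause of these shifts was not tested, beyond there being fewer samples. With the replicate number as a block, 326 genes and 3 members were called, and 4 pathway genes, the added one being Usp18 (−0.74 ± 0.14, adjusted p = 0.0198), which also passed without a filter (adjusted p = 0.0105). Same-numbered libraries did not deviate together over all genes, but for Oas2, Oas3 and Oasl2 they did so in replicates 2 and 3, and the block narrowed the SE of Oas2 to 0.14 (0.21 without it), of Oas3 to 0.17 (0.25) and of Oasl2 to 0.18 (0.25).

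Pathway genes called were 3, against 5 with library totals, which added Irf9 and Ifngr1, and 3 to 4 with 1 library left out. Directions turned only for values near 0, none of which passed: Oas3 (0.01 to 0.03 without adult replicate 2 or infant replicate 3, and −0.56 to 0.03 over the libraries left out), Irf7 (−0.40 to 0.03) and Ifnar2, which was 0.00 with DESeq2, with its size factors and with the replicate block, 0.01 with library totals, 0.03 with no filter, and −0.10 to 0.12 with 1 library left out. Without a filter, the median log2 fold change over 39470 genes was −0.839. With 10 to 19 counts of Oas1a per infant library, depth limits its infant level more than that of the other called members, and Oas1g cannot be compared between ages at this depth.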

Other observations

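The Oas1 copies that are not among the 8 members were near 0. Oas1d had 5, Oas1f 3 and Oas1h 8 counts in adult replicate 2, against 0 in the other adult libraries and at most 2 in any infant library. The count density over untested genes predicts 3.7, 2.7 and 3.2 counts for them in adult replicate 2. Oas1e had 6, 1 and 1 counts in infant libraries and 0, 5 and 0 counts in adult libraries. The 9 interferon genes listed were all too low to test: Ifnb1, Ifng, Ifne, Ifnl2 and Ifnl3 had 0 counts in all 6 libraries, and Ifna1, Ifna2 and Ifna4 had 1, 3 and 4 counts in adult replicate 2 alone. Ifnk had 13 counts there and at most 1 elsewhere.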
